A study of Homo sapiens with 14 samples.

Results

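GAS5 and 9 other small nucleolar RNA (snoRNA) host genes were followed through loss of mitochondrial DNA synthesis in human fibroblasts. The 10 genes were taken by symbol from a count table of 27142 genes: GAS5, SNHG1, SNHG5, SNHG6, SNHG7, SNHG8, SNHG12, SNHG15, SNHG16 and ZFAS1. The cells were IMR90, an established and genetically unmodified line of fetal lung fibroblasts, grown in EMEM with serum. They received 20 uM 2',3'-dideoxycytidine (ddC), a nucleoside analog that ends the growing DNA strand and blocks copying of mitochondrial DNA, for 24, 48, 72 or 96 h. Polyadenylated RNA was sequenced with a stranded kit in 3 libraries for each ddC time and in 2 libraries of untreated cells, 14 in all. The series' design text places the untreated cells at 0 h, but the sample labels put them at 4 days with water as vehicle, which leaves their time in culture uncertain. The replicates are called biological, with no word on whether cultures were separate, and p-values measure the spread between these libraries.

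A snoRNA host gene carries snoRNA genes within its introns. The introns are cut out by splicing, trimmed to the mature snoRNA and kept in the nucleolus. There, snoRNAs of the C/D class (SNORD) guide methylation of the ribose, and those of the H/ACA class (SNORA) guide conversion of uridine to pseudouridine, mostly on ribosomal RNA. The spliced exons of noncoding hosts leave the nucleus and are in many cases removed by nonsense-mediated decay, which needs translation, so these RNAs can build up when translation or growth slows. GAS5, the growth arrest-specific transcript 5, is the classic case. It has been described to begin with a terminal oligopyrimidine (TOP) tract like that of ribosomal protein mRNAs. Its RNA has been described to bind the glucocorticoid receptor.

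The hosts differed widely in what they carry. Within the spans of the 10 genes lay 36 snoRNA genes of the table, 28 SNORD and 8 SNORA, all on the host's strand. GAS5 (hg19 chromosome 1, 173833039 to 173837125, minus strand) held 11 of them in a span of 4087 bases, for a transcript of 620 bases. SNHG1 (chromosome 11, 62619460 to 62623360, minus strand) held 8, all SNORD. SNHG12 (chromosome 1, 28905050 to 28908366, minus strand) held 4, of which 3 were SNORA. SNHG16 and ZFAS1 held 3 each, SNHG5 and SNHG7 2 each, and SNHG6, SNHG8 and SNHG15 1 each.

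The starts of 6 hosts are shown because the results below turn on these genes or on the TOP tract. The sequences are RefSeq promoter windows on GRCh38.p14, from 40 bases before the annotated start to 25 bases from it, on the gene's strand. Capitals mark TATA (or TATATA where present) within 40 to 20 bases before the start and, at the start itself, a C followed by at least 4 pyrimidines. For GAS5 the RefSeq window lies farther upstream than the transcript counted here, so the first 40 bases of the GENCODE transcript matched to it are shown in its place, with the opening pyrimidines in capitals. These are 4 pyrimidines that open with T, so they do not meet the rule of a C followed by at least 4 pyrimidines.
GAS5, chr1:173867948-173867987, minus strand: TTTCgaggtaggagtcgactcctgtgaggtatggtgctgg
SNHG12, chr1:28581849-28581913, minus strand: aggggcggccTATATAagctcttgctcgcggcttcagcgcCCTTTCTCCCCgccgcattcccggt
SNHG5, chr6:85678709-85678773, minus strand: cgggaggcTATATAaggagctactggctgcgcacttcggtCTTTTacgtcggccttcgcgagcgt
ZFAS1, chr20:49278602-49278666, plus strand: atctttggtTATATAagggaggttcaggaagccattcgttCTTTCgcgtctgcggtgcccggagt
SNHG1, chr11:62855861-62855925, minus strand: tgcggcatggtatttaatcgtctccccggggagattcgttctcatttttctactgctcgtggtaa
SNHG16, chr17:76557724-76557788, plus strand: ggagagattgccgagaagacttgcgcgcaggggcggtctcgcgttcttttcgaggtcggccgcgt

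RefSeq windows were used for 8 of the 10 genes (not SNHG6 and SNHG15), with GAS5 counted by its upstream window. The pyrimidine run stood exactly at the annotated start in 3 of them (SNHG5, SNHG12 and ZFAS1), against 4.07% of 35116 RefSeq promoters. TATA letters, searched on the gene's strand, stood 40 to 20 bases before the start in 5 of them (SNHG5, SNHG7, SNHG8, SNHG12 and ZFAS1), against 5.91% of all promoters. SNHG1 and SNHG16 hold pyrimidine runs near the start without one that begins at the annotated base. These are matches of letters to an annotated start, which can be a few bases from the start the cell uses.

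Libraries differed in ways that touch these genes. Total counts ran from 9398703 to 12147402 a library. A nuclear RNA score, the mean log2 CPM (read counts scaled to a common library size with TMM factors) of the nuclear noncoding RNAs MALAT1, NEAT1, MEG3 and KCNQ1OT1, ran from 4.24 in 48 h replicate 1 to 6.86 in 72 h replicate 1. MALAT1 alone ran from 52.1 to 409 CPM. The 4 libraries with the lowest scores were 48 h replicate 1, 24 h replicate 3, 72 h replicate 3 and 96 h replicate 2, so each ddC time held a low score. High scores were less evenly spread. Replicates 1 to 3 of 96 h scored 5.87, 4.76 and 5.38, and the untreated libraries 5.09 and 6.32. The highest scores, 6.76 to 6.86, were those of 24 h replicate 2 and 72 h replicates 1 and 2. The score and the 96 h group therefore overlap in part. Reads on the strand opposite to abundant genes split the libraries into sets of 7. The higher set, at 1.06 to 1.16 such reads per 1000, held all 72 h and 96 h libraries and 48 h replicate 3, and the lower set, at 0.782 to 0.931, held the rest. Library set and late ddC times therefore overlap almost completely, and 48 h replicate 3 is the 1 library that separates them. The fibroblast markers COL1A1 (at least 15694 CPM) and VIM (at least 4994 CPM) were high in every library. Of 5 epithelial markers CDH1 had 0 counts in every library, EPCAM had 1 to 9, and KRT8 (74 to 150), KRT18 (437 to 710) and KRT19 (24 to 67) passed the filter. Of 5 endothelial markers PECAM1 and CDH5 had 0 counts, KDR 0 to 3, VWF 4 to 13 and TEK 398 to 519. Of the blood cell markers CD3E had 0 counts, PTPRC and HBB at most 3, and CD68 468 to 749. At 96 h against untreated cells 2 epithelial markers, KRT18 (log2 fold change 0.44 ± 0.09; edgeR adjusted p of 0.00646) and KRT8 (0.55 ± 0.15; 0.0318), and 5 of 8 fibroblast markers were called higher (3.57% of all genes). The summed level of KRT8, KRT18 and KRT19 was 54.2 to 54.8 CPM in untreated cells and 70.8 to 77.8 CPM at 96 h, and that of the 8 fibroblast markers 35134 to 35850 and 41118 to 44614 CPM. Their part in the results at 96 h was not tested.

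All 10 hosts were expressed in every library. Per kilobase of transcript, SNHG5 had the highest level, at 98.9 ± 7.68 CPM per kilobase (SD, 14 libraries), followed by GAS5 at 74.8 ± 10.4. SNHG6 (57.7 ± 4.60), SNHG8 (55.1 ± 2.67) and SNHG1 (54.3 ± 10.8) lay within each other's spread on this scale. ZFAS1 came next at 41.3 ± 2.87, then SNHG7 at 26.7 ± 1.63 and SNHG16 at 14.6 ± 1.19. SNHG12 (11.2 ± 3.14) and SNHG15 (10.3 ± 1.58) had the lowest levels and could not be ordered. The transcript lengths are those of the table, and a level per length assumes that the listed transcript is the one expressed. In RNA from whole cultures, fewer expressing cells and less RNA per cell cannot be told apart.

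The hosts also differed in how tightly replicates held together. The SD of log2 CPM within groups was 0.48 for SNHG12, 0.30 for SNHG1 and 0.22 for both GAS5 and SNHG15, against a median of 0.12 over the 13371 genes that passed the filter on low counts. SNHG8, at 0.06, varied less than most genes. From the lowest to the highest library, SNHG12 spanned 2.35-fold and SNHG1 1.84-fold, whereas SNHG8 spanned 1.18-fold.

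**Figure D1:**
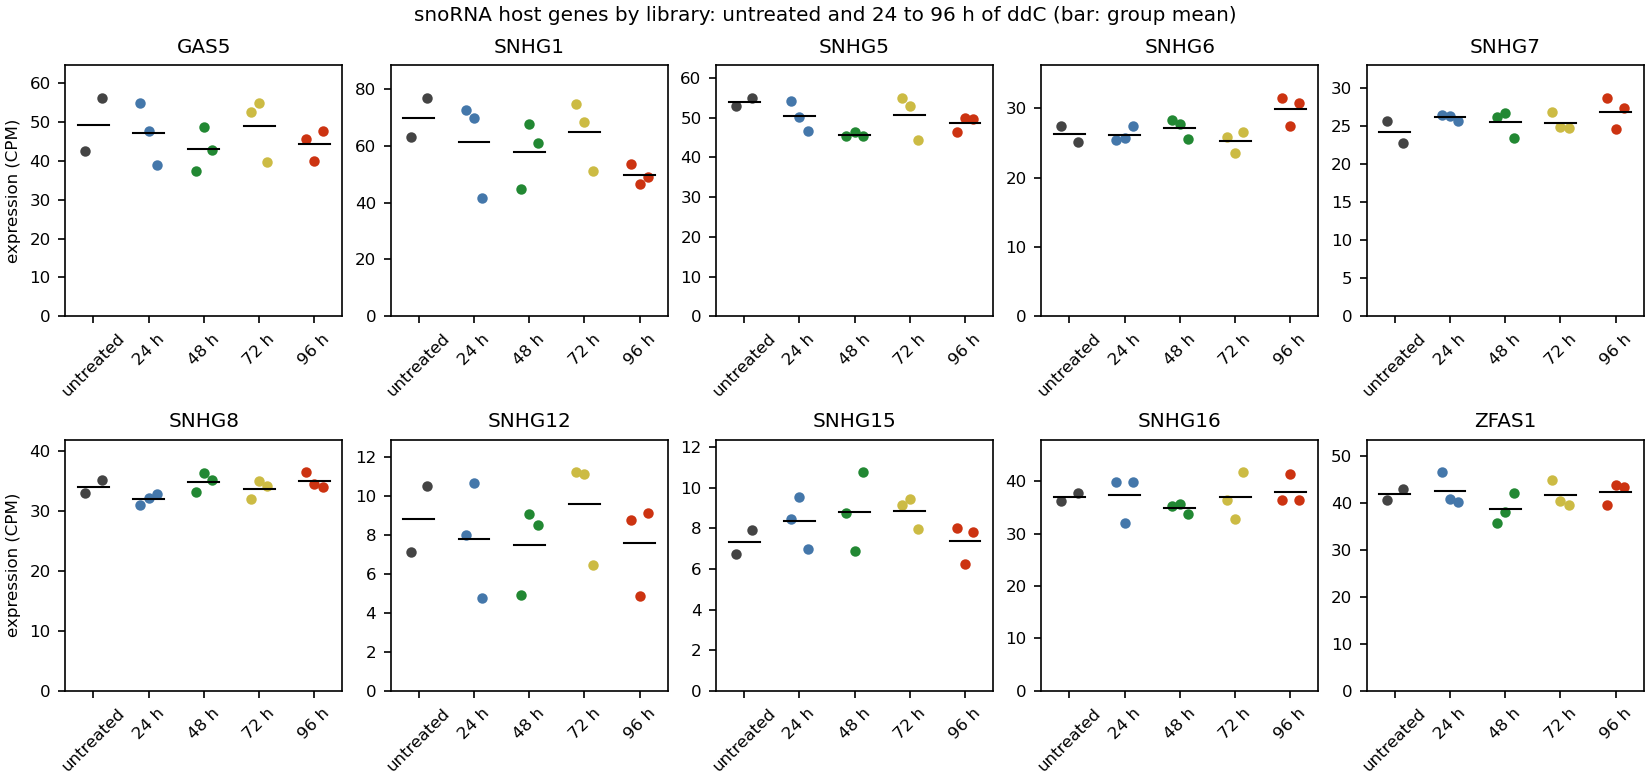
Expression of the 10 host genes in CPM (vertical axes from 0) in each library of untreated cells and of 24, 48, 72 and 96 h of ddC, with black bars at group means. GAS5, SNHG1 and SNHG12 scatter widely within groups, and the 3 libraries of SNHG1 at 96 h (46.6 to 53.4 CPM) lie below both untreated ones (63.0 and 76.8 CPM).

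The study asked how the transcriptome moves as mitochondrial DNA is lost, and none of the hosts passed the test at any ddC time. In edgeR's quasi-likelihood test, with Benjamini-Hochberg adjustment over all 13371 genes and a threshold of 0.05, 0 of the 10 were called at 24 h (0% of all genes called), at 48 h (0.00748%), at 72 h (0.179%) and at 96 h (5.68%). At an unadjusted p under 0.05 the counts were 0, 1, 0 and 0, where 3.42%, 6.01%, 7.24% and 19.8% of all genes passed. DESeq2 and limma-voom also called 0 at each time, with unadjusted counts of 0, 1, 0 and 0 in DESeq2 and 0, 1, 0 and 1 in limma-voom. Below, changes are fitted log2 fold changes ± SE over 3 treated and 2 untreated libraries, and adjusted p-values are edgeR's unless another tool is named.

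GAS5 read 42.5 and 56.2 CPM in the untreated libraries. It read 54.8, 47.6 and 38.9 at 24 h, 37.5, 48.6 and 42.7 at 48 h, 52.5, 54.9 and 39.7 at 72 h, and 45.5, 39.9 and 47.8 at 96 h. Every treated group overlapped the untreated range, and the lowest library of every ddC time was below it. The log2 fold change was -0.07 ± 0.18 at 24 h, -0.20 ± 0.18 at 48 h, -0.01 ± 0.18 at 72 h and -0.15 ± 0.18 at 96 h, where edgeR's adjusted p was 0.710. The 95% interval at 96 h ran from -0.55 to 0.25. The direction depended on the untreated libraries: without replicate 1 of them the value was -0.34 at 96 h and -0.20 at 72 h, and without replicate 2 it was 0.06 and 0.21. The antisense gene GAS5-AS1, which overlaps the end of GAS5 by 41 bases, had 51 reads over all libraries against 7418 for GAS5.

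SNHG1, host of the SNORD22 and SNORD25 to SNORD31 family, read 63.0 and 76.8 CPM in untreated cells and 53.4, 46.6 and 49.1 CPM at 96 h. The 96 h libraries were all below the untreated ones. The earlier times overlapped them, with 72.6, 69.6 and 41.8 CPM at 24 h, 44.9, 67.6 and 61.1 at 48 h, and 74.8, 68.5 and 51.2 at 72 h. The log2 fold change at 96 h was -0.49 ± 0.26 with an edgeR adjusted p of 0.337. It was the largest change of the 10 genes at 96 h.

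Whether SNHG1 was called at 96 h depended on how the spread between libraries was modelled. With only the 5 libraries compared in the fit, the log2 fold change was -0.49 and edgeR's adjusted p was 7.67e-05. Adding the nuclear RNA score to the model gave -0.39 ± 0.07 with an adjusted p of 2.38e-04, in a fit that called 13.8% of all genes (6.56% of all genes as lower) and 1 of the 10 hosts. In that fit the value stayed between -0.42 and -0.36 when each library was left out in turn, and the adjusted p was at most 0.0184. With the score and the library set together, a fit chosen after the data had been seen, it was -0.41 ± 0.12 with an adjusted p of 0.0280. With the library set alone it was -0.61 with an adjusted p of 0.641.

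In the fit with the score, SNHG1 was below untreated at the earlier times too, by amounts that were not called. The log2 fold change was -0.22 ± 0.07 at 24 h, -0.21 ± 0.07 at 48 h and -0.23 ± 0.07 at 72 h, with edgeR adjusted p-values of 0.369, 0.228 and 0.0976. SNHG1 was also the host called for any difference among the 5 groups in that fit (edgeR adjusted p of 0.00507; 10.2% of all genes called), and 0 hosts were called for it with the score and the library set together (unadjusted p under 0.05 for 1). In the same fit edgeR called 0 of the 10 hosts at 24 h (0.00748% of all genes), 48 h (0.254%) and 72 h (1.84%), from 24 to 96 h (8.17%) and for the trend over days (9.5%), with unadjusted counts of 1, 2, 1, 2 and 1. In the same order, 7.7%, 10.8%, 13.5%, 21.1% and 22.3% of all genes had an unadjusted p under 0.05.

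SNHG5, the host of SNORD50A and SNORD50B, read 52.9 and 54.9 CPM in untreated cells. It read 45.3, 46.4 and 45.4 CPM at 48 h and 46.5, 49.9 and 49.6 CPM at 96 h, in both cases below the untreated libraries. At 24 h (54.3, 50.04 and 46.5 CPM) and at 72 h (54.9, 52.8 and 44.4 CPM) the groups overlapped. The log2 fold change of -0.24 ± 0.09 at 48 h was the 1 host value with an unadjusted p under 0.05 against untreated cells (0.0118; edgeR adjusted p of 0.827). At 96 h it was -0.15 ± 0.09 with an adjusted p of 0.360.

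SNHG6, host of SNORD87, had a value in the other direction. It read 27.5 and 25.1 CPM in untreated cells and 31.5, 27.4 and 30.8 CPM at 96 h, where the lowest treated library lay just below the higher untreated one. The log2 fold change at 96 h was 0.18 ± 0.09 with an edgeR adjusted p of 0.273. A term for the library set moved it to 0.32 with an adjusted p of 0.377. Between 24 and 72 h its libraries lay between 23.5 and 28.3 CPM.

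SNHG12 had the least precise fold changes. It read 7.11 and 10.5 CPM in untreated cells and 8.73, 4.87 and 9.09 CPM at 96 h, and 53 to 136 reads a library stood behind these values. The log2 fold change at 96 h was -0.22 ± 0.41, with a 95% interval from -1.12 to 0.69 and an edgeR adjusted p of 0.829. Leaving out 1 library moved it between -0.47 and 0.09, and a term for the library set moved it to -0.49. A change of this size in either direction was not detectable with these libraries.

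The other 5 hosts were not called either. At 96 h the log2 fold change was 0.15 ± 0.09 for SNHG7, 0.04 ± 0.08 for SNHG8, 0.01 ± 0.19 for SNHG15, 0.04 ± 0.10 for SNHG16 and 0.02 ± 0.09 for ZFAS1. Their edgeR adjusted p-values ran from 0.393 to 0.990. The 95% interval of SNHG8, host of SNORA24, ran from -0.13 to 0.21 and that of ZFAS1, host of 3 SNORD12 genes, from -0.17 to 0.21. Over the 4 times these 5 genes stayed between -0.11 and 0.27. A term for the library set moved values that neither fit called: SNHG15 to -0.46 at 96 h and from 0.27 to -0.20 at 72 h, ZFAS1 to -0.18 at 96 h, SNHG7 to 0.33 and SNHG16 to 0.11 at 96 h. At 96 h SNHG8, SNHG15, SNHG16 and ZFAS1 also changed sign when single libraries were left out, within -0.11 to 0.13. ZFAS1 overlaps ZNFX1 on the opposite strand by 42 bases (6621 against 10210 reads over all libraries). Opposite-strand overlaps of the other hosts were TRNAU1AP with SNHG12 (8 bases; 3098 reads), FAM69B with SNHG7 (125 bases; 393 reads) and MCMDC2 with SNHG6 (119 bases; 60 reads). The strand setting of the counting is not given in the sources used here, so reads within these overlaps are uncertain.

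Separation of all treated from both untreated libraries was seen for 1 or 2 hosts at each time. At 24 h SNHG7 lay above and SNHG8 below both untreated libraries, 2 of 10 against 15.9% of all genes. At 48 h SNHG5 and SNHG16 lay below (23.7% of all genes), at 72 h SNHG15 lay above (24.2%), and at 96 h SNHG1 and SNHG5 lay below (40.3%). SNHG5 was separated at both 48 and 96 h.

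**Figure D2:**
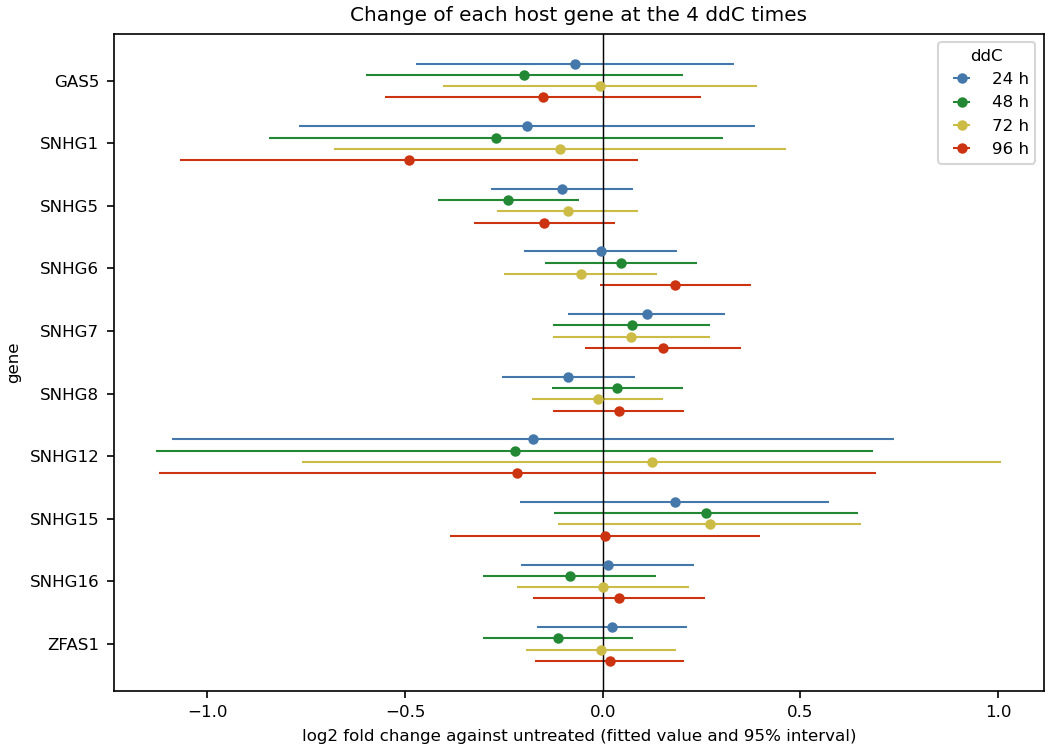
Fitted log2 fold change against untreated cells (horizontal axis, points) with its 95% interval (lines) for each host gene at 24, 48, 72 and 96 h of ddC. The interval includes 0 for every value except SNHG5 at 48 h (-0.24), and the widest intervals are those of SNHG12 and SNHG1.

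Within the treated cells the hosts showed no called change either. From 24 to 96 h, 0 of 10 were called by edgeR (3.2% of all genes), by DESeq2 or by limma-voom. SNHG6 had the 1 unadjusted p under 0.05 in edgeR, with a log2 fold change of 0.19 ± 0.08 (unadjusted 0.0326; edgeR adjusted p of 0.266), where 15.2% of all genes passed. Unadjusted counts were 0 in DESeq2 and 1 in limma-voom. For a linear trend over the ddC days, 0 of 10 were called by the 3 tools (3.76% of all genes in edgeR), with unadjusted counts of 0 in each (15.4% in edgeR). Slopes ran from -0.07 for SNHG1 to 0.05 for SNHG6 in log2 per day. For any difference among the 5 groups, 0 of 10 were called by the 3 tools (3.25% of all genes in edgeR), again with unadjusted counts of 0 (13.2% in edgeR).

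Of the 4 hosts that varied most within groups, SNHG12, SNHG1 and GAS5 moved with the nuclear RNA score and SNHG15 did not pass the test. A slope on the score was fitted in edgeR beside the group means and tested over all 13371 genes; none of the hosts enters the score. This fit was chosen after the data had been seen. Of the 10 hosts, 4 were called, against 26.5% of all genes: 3 with a positive slope (15.1% of all genes) and 1 with a negative slope (11.4%).

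SNHG12 rose with the score by 0.44 ± 0.05 log2 per unit of score (edgeR adjusted p of 7.48e-08), SNHG1 by 0.27 ± 0.03 (2.59e-10) and GAS5 by 0.19 ± 0.03 (3.51e-06). In the 4 libraries with the lowest scores SNHG12 read 4.88, 4.77, 6.42 and 4.87 CPM, and in the 3 with the highest 10.7, 11.1 and 11.2 CPM. SNHG1 read 44.9, 41.8, 51.2 and 46.6 CPM in the same 4 and 69.6, 68.5 and 74.8 CPM in the same 3. GAS5 read 37.5, 38.9, 39.7 and 39.9 CPM against 47.6, 54.9 and 52.5 CPM. These 3 genes were picked by their slope on the same score, so the gap between the 4 and the 3 libraries adds no support to it. The 3 calls stayed without the group means, within each library set alone and without each library in turn.

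The negative slope of SNHG16, host of 3 SNORD1 genes, was small at -0.08 ± 0.03 (edgeR adjusted p of 0.0384). It was lost without the group means (adjusted p of 0.0841), within the lower library set (0.510), within the higher set (0.0635) and without any of 8 single libraries (24 h replicates 2 and 3 and all those of 72 h and 96 h; adjusted p of 0.0501 to 0.328). SNHG5 (0.06 ± 0.03; 0.0680), SNHG15 (0.10 ± 0.06; 0.172), ZFAS1 (0.04 ± 0.03; 0.324), SNHG7 (0.02 ± 0.03; 0.770), SNHG8 (0.01 ± 0.03; 0.762) and SNHG6 (-0.03 ± 0.03; 0.486) were not called. SNHG5 would be called after removing replicate 2 of 24 h, replicate 1 of 48 h or either of replicates 1 and 2 of 96 h (adjusted p of 0.0374 to 0.0445), and SNHG15 without 48 h replicate 2 (0.0152).

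**Figure D3:**
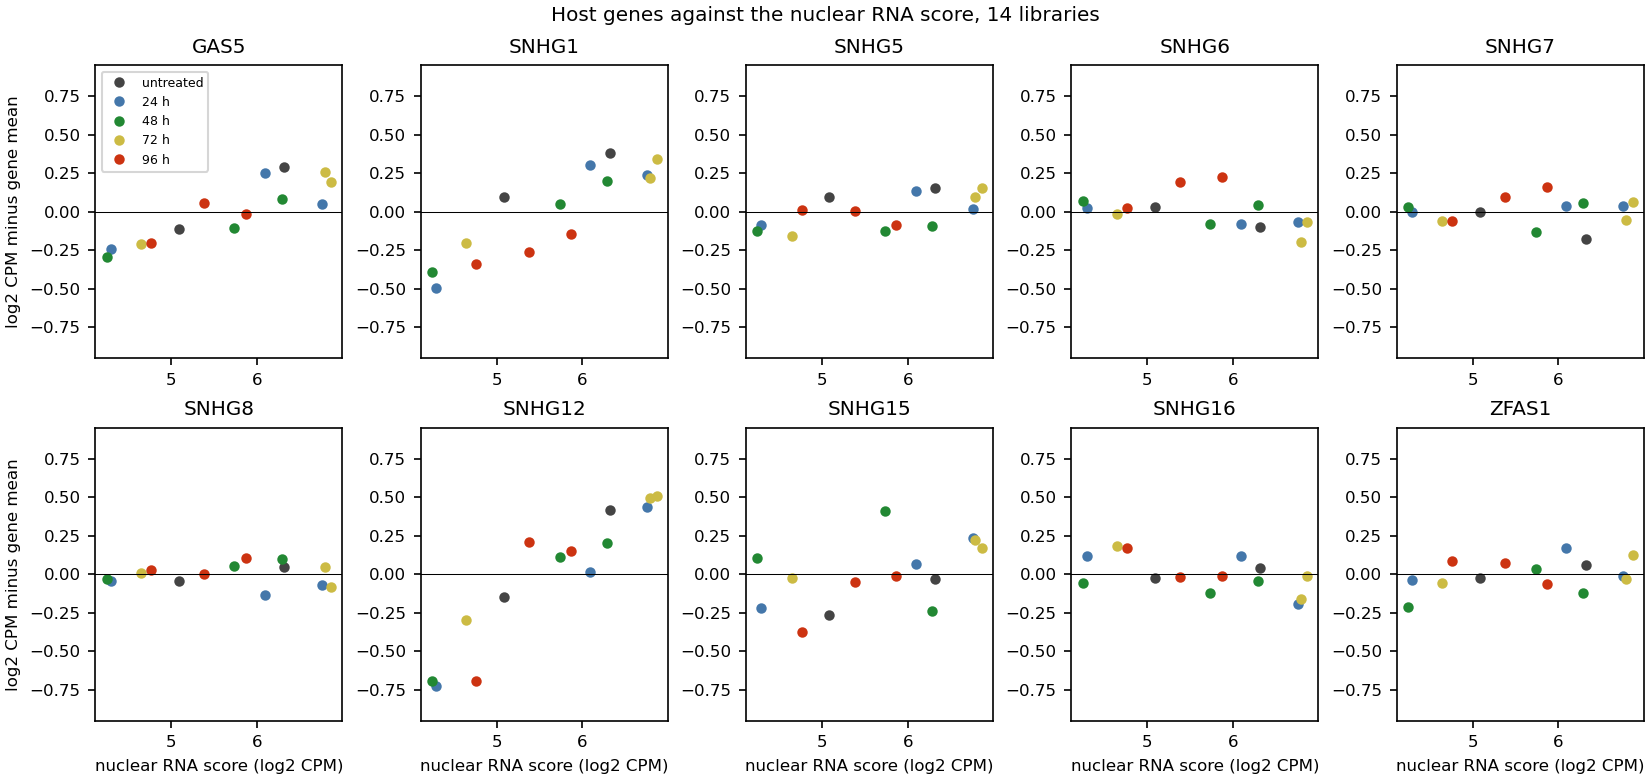
Log2 CPM of each host gene minus its mean over the 14 libraries (vertical axis) against the nuclear RNA score (horizontal axis, log2 CPM), with 1 point a library coloured by group. GAS5, SNHG1 and SNHG12 are higher at the highest than at the lowest score of every group, and for SNHG1 the 96 h points lie low for their score.

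The 3 hosts called with a positive slope were also the 3 that hold the most snoRNAs. GAS5 holds 11, SNHG1 8 and SNHG12 4, whereas the other 7 hosts hold 1 to 3. Among these 3 the order was reversed, with slopes of 0.19 for GAS5, 0.27 for SNHG1 and 0.44 for SNHG12. Slopes of SNHG5, SNHG7, SNHG8, SNHG15 and ZFAS1 were also above 0 but were not called. The 3 called hosts differed further in reads on those snoRNA genes, which the table lists as genes of their own. The counting settings are not given, so a host's count may also hold these reads. Their part in the slopes of the hosts was not tested. Reads on the snoRNA genes came to 19.9% of the host's count in GAS5, 19.1% in SNHG12 and 11.1% in SNHG1, against 0.408% in SNHG16 to 3.06% in SNHG7 among the rest. The share of the span outside the listed transcript did not follow that order, with 84.8% for GAS5, 71.6% for SNHG1 and 77.9% for SNHG12 beside 91.0% for ZFAS1 and 87.0% for SNHG6.

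**Figure D4:**
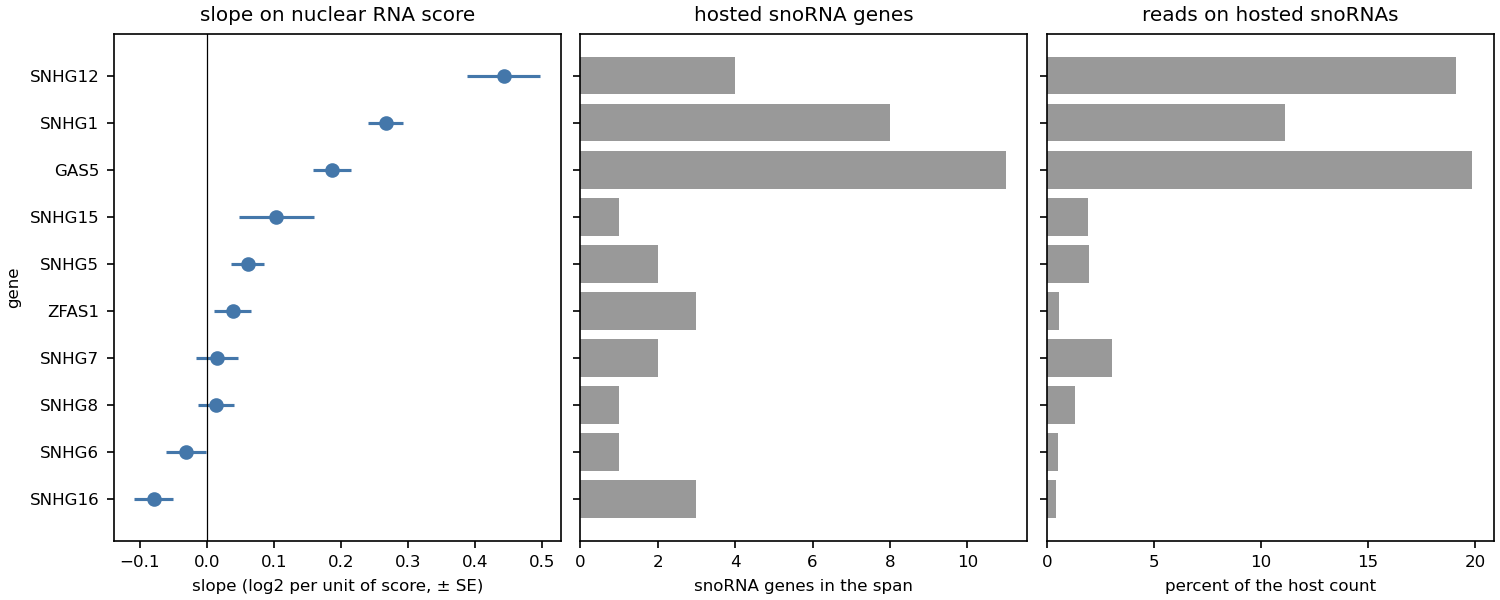
For each host gene, the slope on the nuclear RNA score (left, log2 per unit of score, ± SE), the number of snoRNA genes in its span (middle) and the reads on those snoRNAs as a percent of the host's count (right). SNHG12, SNHG1 and GAS5 lead all 3 panels, with 4, 8 and 11 snoRNA genes.

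Examples of the hosted snoRNAs are shown because their reads moved with the score as their hosts did. They are GENCODE transcripts on GRCh38. In SNORD27 and SNORD30 capitals mark the C box letters (ATGATGA or GTGATGA) and the D box letters (CTGA), which C/D snoRNAs use to bind their proteins, and in SNORA61 they mark the ACA that stands 3 bases before the end of H/ACA snoRNAs.
SNORD27, in SNHG1, chr11:62855012-62855083, minus strand: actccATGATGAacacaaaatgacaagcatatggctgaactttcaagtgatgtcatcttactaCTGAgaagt
SNORD30, in SNHG1, chr11:62853663-62853732, minus strand: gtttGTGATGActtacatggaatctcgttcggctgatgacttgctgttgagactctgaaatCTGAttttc
SNORA61, in SNHG12, chr1:28579764-28579893, minus strand: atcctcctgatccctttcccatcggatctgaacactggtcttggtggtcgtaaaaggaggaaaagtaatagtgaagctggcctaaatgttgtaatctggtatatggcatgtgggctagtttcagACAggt

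Of 955 snoRNA transcripts in that annotation, 26.5% hold both the C and D box letters on their own strand and 29.4% hold ACA at that distance from the end. Sequences were found there for 22 of the 36 hosted snoRNAs. The library protocol selects polyadenylated RNA, and mature snoRNAs carry no poly(A) tail, so reads on these genes need not come from the mature form. Which RNA they come from was not tested.

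Reads on the 36 hosted snoRNA genes summed to 3255 over all libraries, beside 53993 on the hosts. Inside GAS5 they ran from 35 reads in 48 h replicate 1 to 220 in 72 h replicate 1, the libraries with the lowest and the highest score. Inside SNHG1 they ran from 33 in 96 h replicate 2 to 134 in 72 h replicate 2. Inside SNHG12 they ran from 8 to 27.

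Of the 36 snoRNA genes, 15 passed the filter on low counts, and 13 of these were called with a positive slope on the score and 0 with a negative slope (15.1% and 11.4% of all genes). The filter keeps a gene that reaches the minimum count in only some libraries. Genes with few reads, such as SNORD26 with 0 to 15 a library, could pass through the libraries in which they were high. The 13 calls and the share of all genes are therefore not on equal terms. In GAS5 the called ones were SNORD44, SNORD47, SNORD76, SNORD79, SNORD80 and SNORD81, with slopes from 0.65 ± 0.09 (SNORD47, the most abundant at 660 reads) to 1.05 ± 0.21 (SNORD80). In SNHG1 they were SNORD22, SNORD26, SNORD27, SNORD29 and SNORD30, with slopes from 0.58 ± 0.20 (SNORD30) to 1.19 ± 0.25 (SNORD26). SNORA61 of SNHG12 had 0.48 ± 0.15 and SNORA17A of SNHG7 had 0.86 ± 0.20. SNORD28 (0.36 ± 0.21; edgeR adjusted p of 0.212) and SNORD50B (0.46 ± 0.18; 0.0517) were not called. SNORA17A and SNORA17B of SNHG7 are close copies by name, so the value of SNORA17A is uncertain, since how counting treated reads that fit more than 1 place is not given in the sources used here.

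The slopes of the tested snoRNAs in GAS5 and SNHG1 were steeper than those of their hosts at 0.19 and 0.27. The difference between a snoRNA and its host was not tested. Some of these snoRNAs could pass the filter through the libraries in which they were high, so the sizes are not on equal terms. At 96 h against untreated cells none of the 15 was called by edgeR, DESeq2 or limma-voom, and 0 had an unadjusted p under 0.05 in any of them. In edgeR 5.68% of all genes were called and 19.8% had an unadjusted p under 0.05. The values at 96 h ran from -1.03 ± 0.76 for SNORD30 to 0.19 ± 0.92 for SNORA17A.

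**Figure D5:**
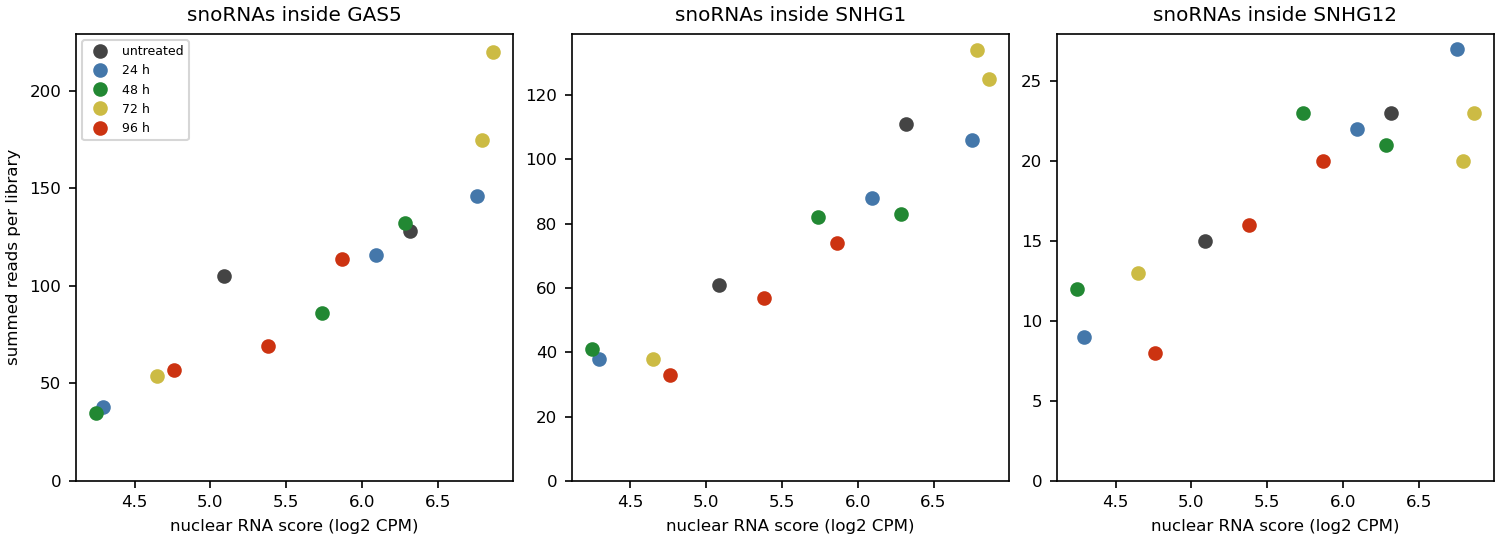
Reads summed over the snoRNA genes inside GAS5, SNHG1 and SNHG12 (vertical axes, reads per library, not scaled to depth) against the nuclear RNA score (log2 CPM), 1 point a library coloured by group. Reads inside GAS5 run from 35 to 220 and increase with the score in every group.

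Across the 14 libraries GAS5 ran closest to SNHG12 (Pearson r of 0.85) and SNHG1 (0.85) among the hosts, followed by SNHG5 (0.75). SNHG6 and SNHG7 ran together at 0.66, while SNHG6 and SNHG1 had -0.60. Outside the list, the 5 genes closest to GAS5 among 10061 of sufficient level were VMP1 (r of 0.94), EZH1 (0.92), ZNF514 (0.92), MIR5047 (0.92) and FAM118A (0.92). VMP1 encodes a membrane protein of autophagy and EZH1 a histone methyltransferase. All 5 were called with a positive slope on the nuclear RNA score (15.1% of all genes), from 0.17 for VMP1 to 0.90 for MIR5047. They were picked for their likeness to GAS5, which was itself called, so these calls were largely set by that choice. The genes closest to the mean of the 10 hosts were EZH1 (0.96), ZNF514 (0.95), NEAT1 (0.95), VMP1 (0.95) and FAM118A (0.95). These correlations carry no test, and they are taken over libraries whose nuclear RNA score ran from 4.24 to 6.86 and which fell into the 2 library sets.

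Of 18 other noncoding snoRNA hosts listed, 15 were in the table and 13 were tested. At 96 h 0 of the 13 were called by edgeR (5.68% of all genes), DESeq2 or limma-voom. The unadjusted p was under 0.05 for 1, 1 and 2, against 19.8% of all genes in edgeR. The median log2 fold change was -0.13 (all genes, -0.0039) and 3 lay above 0. Among the 10 hosts described above the median was 0.01 and 6 lay above 0. The extremes were SNHG4 at -0.93 ± 0.28 (edgeR adjusted p of 0.0517) and SNHG18 at 0.21 ± 0.11 (0.287). On the nuclear RNA score 3 were called with a positive slope (15.1% of all genes): SNHG3 (0.38 ± 0.03), SNHG20 (0.29 ± 0.08) and SNHG10 (0.24 ± 0.07). The snoRNA genes within these 13 hosts were not counted. Whether hosts called with a positive slope hold many snoRNAs was therefore not tested outside the 10.

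Most protein-coding snoRNA hosts did not pass the test. Of 53 tested, 1 rose and 5 fell at 96 h, where 3.57% of all genes were called higher and 2.11% lower, and the median log2 fold change was -0.0044. NCL, the gene of nucleolin, fell by 0.26 on the log2 scale (SE 0.05; edgeR adjusted p of 0.00490), NOP56 fell by 0.35 (SE 0.08; 0.0123) and RCC1, the exchange factor of Ran and neighbour of SNHG3, fell by 0.31 (SE 0.06; 0.00574). RPL23A rose by 0.33 ± 0.08 (0.0170). On the score 8 were called positive and 21 negative (15.1% and 11.4% of all genes).

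Proteins that bind or assemble snoRNAs had 2 members that fell. Among 22 genes of snoRNA-protein particles and their assembly, 2 fell at 96 h and 0 rose (2.11% of all genes called lower, 3.57% higher). They were NOP56, a core C/D box protein, and NOLC1, a nucleolar chaperone, which fell by 0.23 (SE 0.07; edgeR adjusted p of 0.0384). Of the 22, 4 lay above 0, and the median log2 fold change was -0.12 against -0.0039 over all genes.

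Genes of nonsense-mediated decay did not pass the test. Of 24 factors, 0 were called at 96 h by edgeR (5.68% of all genes), DESeq2 or limma-voom. The unadjusted p was under 0.05 for 4, 4 and 5, against 19.8% of all genes in edgeR. Of the 24, 3 lay above 0 and the median was -0.09. UPF3A, a decay cofactor, had 0.22 ± 0.10 (edgeR adjusted p of 0.234) and the kinase SMG1 had -0.40 ± 0.18 (0.262). Among 18 tested transcripts known as targets of this decay, apart from the hosts, 5 rose and 1 fell at 96 h (3.57% of all genes called higher, 2.11% lower). ATF3 rose by 1.09 ± 0.17 (3.21e-04), GADD45A by 0.53 ± 0.08 (3.76e-04) and GADD45B by 0.48 ± 0.08 (7.53e-04), all stress-response genes, and the splicing factor SRSF2 fell by 0.26 (SE 0.06; 0.0213). The median over the 18 was 0.00188, and GAS5 and the other hosts were not among the called genes.

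The TOP mRNAs lay slightly above 0 at 96 h with 1 call. Of 75 tested cytosolic ribosomal protein genes, 1 (RPL23A) rose and 0 fell at 96 h (3.57% and 2.11% of all genes). The median log2 fold change was 0.10 against -0.0039 over all genes, and 58 of the 75 lay above 0. Of 21 other TOP mRNAs, 0 were called by edgeR (5.68% of all genes), DESeq2 or limma-voom. The unadjusted p was under 0.05 for 2, 5 and 3, against 19.8% of all genes in edgeR. Of the 21, 15 lay above 0 and the median was 0.09. EEF2, an elongation factor, had 0.17 ± 0.06 (edgeR adjusted p of 0.120) and EIF3A had -0.11 ± 0.06 (0.271). On the nuclear RNA score 37 of the 75 ribosomal protein genes were called negative and 1 positive, and 13 of the 21 other TOP mRNAs were called negative and 0 positive, against 11.4% of all genes called negative and 15.1% positive. GAS5, SNHG1 and SNHG12 had slopes of the opposite sign to the negative ones, which was set by picking them for a positive call. SNHG16 was called negative (-0.08 ± 0.03). SNHG5 (0.06 ± 0.03) and ZFAS1 (0.04 ± 0.03), which hold the pyrimidine run at the annotated start, were not called.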

How the data were processed

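The authors deposited whole-number read counts per gene for 14 libraries. STAR 2.5.3a, HOMER and the build hg19 are named in the submitters' processing notes; the counting settings, filters and annotation are not given in the sources used here. Library preparation followed the TruSeq Stranded mRNA protocol, per the labels. Coordinates come from the table (hg19), and sequences from RefSeq (GRCh38.p14) or GENCODE (GRCh38).

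Genes passed edgeR's filterByExpr (minimum count 10, minimum total 15; 13371 of 27142), and counts were scaled with TMM (factors 0.971 to 1.02). The quasi-likelihood test of edgeR 4.0.16 (R 4.3.3) was robust, two-sided, and fitted to all 14 libraries with 1 mean per group. The p-values were adjusted by Benjamini-Hochberg over all genes, threshold 0.05. The SE is |log2 fold change| / sqrt(F). Scripts were tested on simulated data. Alternatives were median-ratio size factors, DESeq2 1.42.0, limma-voom (limma 3.58.1), no filter, leaving out each library, only the compared groups, a block by replicate number, the nuclear RNA score and the library set. The score and set together, and the slope with its alternatives, were added after seeing the data. The opposite-strand index rests on genes at or under 1% of an opposite gene of at least 100 CPM.

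Genes named were all 10 hosts, overlapping neighbours, snoRNAs inside the hosts (those that passed the filter, the others by counts), up to 3 called genes per direction of each list (otherwise its extremes at 96 h), and the 5 genes with the highest r of log2 CPM (prior count 3; average at least 3) to GAS5 or to the hosts' mean. The members and lists were chosen with earlier results of these data known. Counting depth per host was 53 to 908 reads a library. A marker on the fixed list is not reported here.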

Additional observations from a re-analysis of the deposited data

How the results depend on the processing

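The count of hosts called was 0 in each of the 7 comparisons between groups under median-ratio size factors, DESeq2, limma-voom, no filter on low counts and the library set as a term. At 96 h against untreated cells it became 1 (SNHG1) with only the compared groups, 1 with the nuclear RNA score and 1 with the score and the library set. For any difference among the 5 groups it became 1 (SNHG1) with the score and was 0 with score and set. Leaving out each library in turn left the count at 0 in every comparison, while the genes called at 96 h among all tested ran from 174 to 1034 around 759. With the replicate number as a block 0 hosts were called. Whether the numbers pair the libraries was not settled. The correlation of deviations ran from -0.361 to 0.611 in 26 same-number pairs and from -0.489 to 0.512 in 52 different-number pairs. Of the same-number pairs 11 exceeded 0.1, and 6 of 14 libraries correlated best with their own number. Of 1380 single values under the alternatives, 1270 kept direction and side of the threshold, 3 (SNHG1 at 96 h) became called, and 107 changed sign with no call in either fit. Hosts called for the slope on the score ran from 3 to 5 when 1 library was left out. Those fits called 2128 to 3834 of all genes tested, around 3546 with all libraries. Hosts called were 3 without group means and in each library set, where the share of all genes called is not given here. Only the compared groups was not run for any difference, where it is the same fit. With 2 untreated libraries, leaving out 1 leaves a library assumed to vary like the other groups. SNHG12 and SNHG15, at 53 to 136 reads a library, had the least depth. Genes called at 96 h numbered 1646 with only the compared groups, 1848 with the score, 1007 with score and set, and 121 with the set alone.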

Other observations

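Genes tied to GAS5 by function were looked at beside it. GAS5 RNA has been described to compete for the glucocorticoid receptor, and of 15 tested genes of the receptor and its targets 5 rose and 0 fell at 96 h of ddC against untreated cells (3.57% of all genes were called higher and 2.11% lower). ERRFI1, a feedback inhibitor of the EGF receptor, rose by 0.78 ± 0.07 on the log2 scale (edgeR adjusted p of 6.96e-07), the transcription factor CEBPD by 0.78 ± 0.11 (2.76e-04) and the phosphatase DUSP1 by 0.33 ± 0.07 (0.00519), with n = 3 treated and 2 untreated libraries. The median of the 15 was 0.32 against -0.0039 over all genes, and 11 lay above 0. PDK4 had -0.54 ± 0.37 (0.453). GAS5 itself was not called (-0.15 ± 0.18; 0.710), and a link between it and these genes was not tested.

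Of 15 genes of the growth kinase mTORC1 and of TOP mRNA control, 2 rose and 1 fell at 96 h (3.57% of all genes called higher, 2.11% lower). DDIT4, an inhibitor of mTORC1, rose by 0.88 ± 0.08 (edgeR adjusted p of 6.96e-07), and SESN2, another, by 0.44 ± 0.10 (0.0117). MTOR, the kinase, fell by 0.42 (SE 0.10; 0.0214). The median of the list was -0.01.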
